A study of Rattus norvegicus with 6 samples.

Results

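A group of 9 genes for factors that support axons, or for their control, was followed in rat Schwann cells given the soluble growth factor neuregulin 1 (isoform NRG1β1, below NRG1): Bdnf, Ntf3, Gdnf, Artn, Cntf, Mdk, Ptn, Shh and Olig1. They were selected by gene symbol, and all 9 were found among the 17327 genes of the count files. Of the 9, 5 had enough counts to be tested (Bdnf, Gdnf, Cntf, Ptn and Shh), 3 were counted at very low levels (Artn, Mdk and Olig1) and Ntf3 had no count in any library.

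Schwann cells, which ensheath the axons of peripheral nerves, were grown as primary cultures from sciatic nerves of adult female Wistar rats. All 6 samples came from confluent cells that had been expanded with forskolin, a compound that raises cAMP, and with a growth factor given as NRG1 itself in the study's methods and as glial growth factor in the labels. They were then starved of that factor for 18 h in medium with 2% FBS and 10 μM forskolin, so that mock cells had been withdrawn from it and NRG1 cells met a neuregulin again. The 3 independent cell preparations (cultures 1, 2 and 3) each gave a mock sample, which received the buffer of the ligand (PBS with BSA), and an NRG1 sample, which received 10 nM recombinant NRG1 in the same medium, both for 6 h. The comparison asks which genes respond early to soluble NRG1, a factor released in injured nerves. Forskolin, which favours a differentiated state, was thus present in both groups, and no axons were.

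Trophic factors from Schwann cells keep neurons alive and guide growing axons when a nerve is injured. BDNF and NT-3 (Ntf3) are neurotrophins, which act through Trk receptors and the shared receptor p75 (Ngfr). GDNF and artemin (Artn) bind GFRα co-receptors and signal through Ret, CNTF binds a receptor with gp130 (Il6st), and midkine (Mdk) and pleiotrophin (Ptn) bind receptors such as Ptprz1, Alk and syndecans. Sonic hedgehog (Shh) relieves the block that Patched (Ptch1) puts on Smoothened (Smo). Olig1 is a transcription factor best known from oligodendrocytes. Shh, Gdnf, Artn, Bdnf and Olig1 are known as genes of the repair Schwann cell, a state driven by the transcription factor c-Jun.

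Because c-Jun binds AP-1 sites and cAMP acts through CRE sites, the 250 bases before the RefSeq gene starts were searched on both strands for the AP-1 letters TGACTCA or TGAGTCA and the CRE letters TGACGTCA, which do not overlap in any member window. The promoter table held 13 windows for 6 of the members (Bdnf, Ntf3, Gdnf, Artn, Cntf and Ptn) and none for Shh, Mdk and Olig1. An AP-1 match was found in the windows of Cntf and Ptn, 72 and 80 bases before the start, and these 2 windows are shown with the match in capitals. They are printed on the strand of the gene from RefSeq on the GRCr8 assembly, which is not the assembly used for the counts, at chr1:219314536-219314785 and chr4:66342333-66342582, both on the minus strand.
Cntf: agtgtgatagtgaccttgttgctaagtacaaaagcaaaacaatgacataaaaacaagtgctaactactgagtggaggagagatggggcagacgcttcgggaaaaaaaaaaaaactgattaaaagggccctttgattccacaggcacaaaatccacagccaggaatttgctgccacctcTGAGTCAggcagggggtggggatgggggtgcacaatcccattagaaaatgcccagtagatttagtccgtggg
Ptn: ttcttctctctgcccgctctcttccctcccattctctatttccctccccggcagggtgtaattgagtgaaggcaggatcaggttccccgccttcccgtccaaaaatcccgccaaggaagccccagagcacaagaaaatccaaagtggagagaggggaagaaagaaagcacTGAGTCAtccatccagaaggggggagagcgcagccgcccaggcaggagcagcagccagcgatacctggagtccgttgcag
Of 33469 such windows of all genes, 4.05% held an AP-1 match and 1.59% a CRE match, and no member window held a CRE match. A match describes these exact letters in the window, without their variants, and not a site in use.

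The libraries held between 6821590 and 15475018 counts on genes, and 3 counts, taken as the floor, stood for 0.194 to 0.44 CPM (counts scaled to 1000000 counts on genes). Culture 1 stood apart from the other 2 in both of its samples. The fibroblast markers Dcn, Lum and Thy1 were counted in both libraries of culture 1 (Dcn at 594 and 413 CPM) and were at 0 in the other 4, and Pdgfra was at 846 and 800 CPM in culture 1 and at most 1.62 CPM elsewhere. Fbln1, of the same list, did not set culture 1 apart, at 7.67 and 7.48 CPM there and 3.05 to 7.95 CPM elsewhere. Over all genes, 37 had at least 100 counts in both libraries of culture 1 and none elsewhere, against 0 such genes for culture 2 and 1 for culture 3. The summed level of 6 Schwann cell markers was 2944 and 3760 CPM in culture 1 and 6122 to 8412 CPM in cultures 2 and 3, and that of the 8 fibroblast markers was 51957 and 55832 CPM against 13776 to 22129 CPM. Col1a1 and Col3a1 make up most of the fibroblast sum and Schwann cells also express them, while Col1a2 had 2 counts in all. In bulk RNA, fewer cells of a type and less RNA per cell cannot be told apart. Fitted values without culture 1 are therefore given for the tested genes of the 9 and for the called genes of their pathways.

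Shh rose with NRG1 and was the only 1 of the 9 genes with a called change, about 2.05-fold. Cntf and Bdnf were lower with NRG1 in each of the 3 cultures but were not called (both had an unadjusted p under 0.05 in edgeR), and Gdnf and Ptn moved in different directions in different cultures. A change was called at an adjusted p of at most 0.01 in edgeR's quasi-likelihood test with the culture as a block, and a gene was called regulated when the absolute log2 fold change was also over 1. Among the 9740 tested genes, 11.8% were called changed (6.31% higher and 5.51% lower with NRG1) and 3.47% regulated (1.56% higher and 1.91% lower), so that 1 of 5 tested genes is not a share that sets this small group apart. At an unadjusted p under 0.05 in edgeR, 1660 of the 9740 tested genes were higher with NRG1 and 1819 lower. The 3 cultures had the same direction in 3 of the 5 genes, as in 56% of all tested genes. The median of the absolute log2 fold changes was 0.62 for the 5 tested genes and 0.24 for all tested genes. The former is the value of Bdnf, which was not called. Standard errors of the 5 genes were 0.19 to 0.32, and the part of noise from low counts in their median was not tested. The medians are therefore not read as a difference between the group and other genes.

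**Figure D1:**
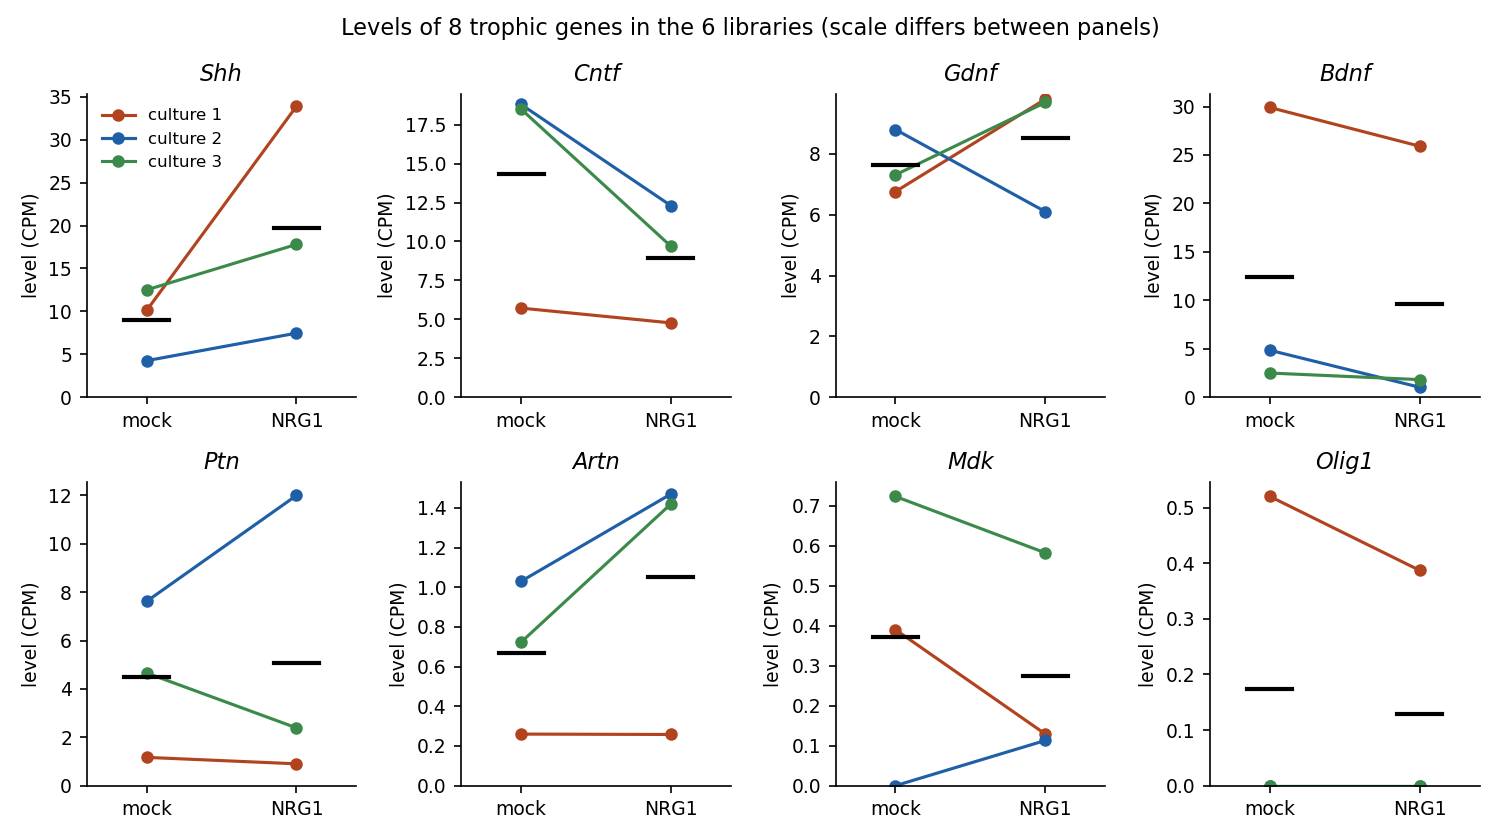
Level in CPM of the 8 genes with counts in mock and NRG1 samples, 1 panel per gene with its own scale from 0. Points joined by a line are the 2 samples of a culture and black bars are group means over 3 samples. Shh was higher with NRG1 in all 3 cultures, with means of 8.97 and 19.7 CPM, while Bdnf differed far more between cultures (29.9 CPM in mock sample 1 against 4.84 and 2.49 CPM) than between mock and NRG1.

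Shh was counted 78, 29 and 156 times in mock samples 1, 2 and 3 and 263, 66 and 276 times in NRG1 samples 1, 2 and 3. This corresponds to 10.1, 4.25 and 12.5 CPM in mock and 33.9, 7.46 and 17.8 CPM in NRG1 samples. The groups overlap, since NRG1 sample 2 lay below 2 of the mock samples, but within each culture the NRG1 sample was the higher one. The group mean was 8.97 ± 4.26 CPM in mock and 19.7 ± 13.3 CPM in NRG1 samples (SD, n = 3). The log2 fold change of Shh, computed within cultures by edgeR, was 1.04 ± 0.22 (SE, edgeR adjusted p = 0.0045), which just exceeds the fold threshold.

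The rise of Shh was uneven. Its log2 ratio was 1.73 in culture 1, 0.76 in culture 2 and 0.53 in culture 3, so the largest rise came from the culture with the fibroblast markers. Without culture 1, the log2 fold change of Shh was 0.63 and the adjusted p of edgeR was 0.071, and the gene was no longer called. In edgeR's fit without the culture as a block it was 1.15 with an adjusted p of 0.49, but that fit called no gene at all. Whether the source of the fibroblast markers in culture 1 has a part in the uneven rise of Shh was not tested. A long non-coding RNA, LOC102546975, overlaps Shh in RefSeq, and it is not stated whether the counting used strand.

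The genes that release and receive hedgehog proteins were looked at next. Of 14 listed genes 10 were in the files and 9 were tested, of which 1 rose and none fell (2 were higher and 0 lower at an unadjusted p under 0.05 in edgeR). The gene that rose was Disp1, which encodes the transporter that releases hedgehog proteins from the cells that make them. It stood at 34.8, 63.5 and 58.7 CPM in mock samples 1, 2 and 3 and at 74, 91.2 and 119 CPM in NRG1 samples, so that the groups did not overlap, as was the case for 19.2% of all tested genes. Its log2 fold change was 0.88 ± 0.14 (SE, edgeR adjusted p = 0.00047). The known targets of the pathway showed no called change. Ptch1, receptor and target, was at 113 ± 23.6 CPM in mock and 108 ± 24.7 CPM in NRG1 samples (SD, n = 3), with a log2 fold change of -0.06 ± 0.12 (SE), and Gli1 had 0.12 ± 0.31 (SE). Smo, the signal transducer, had a log2 fold change of 0.24 ± 0.14 (SE). Hhip, another target, had no count in any library. The related ligand Dhh, a product of Schwann cells that organises the perineurium, was at 280 ± 146 CPM in mock and 300 ± 117 CPM in NRG1 samples (SD, n = 3), with a log2 fold change of 0.16 ± 0.13 (SE), or 0.06 without culture 1. Levels of different genes are not compared here, since CPM does not correct for transcript length and lengths were not available.

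The 3 tested genes whose log2 CPM followed Shh most closely over the 6 samples were Socs2, Ddost and Fgfrl1, with a Pearson r of 0.983, 0.966 and 0.965. None of the 3 was itself called, and their log2 fold changes were 0.21, 0.08 and 0.39. The likeness describes differences between cultures as well as those between mock and NRG1.

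Cntf, an injury factor stored in the cytoplasm of myelinating Schwann cells, had the smallest adjusted p of the 4 genes that were tested and not called. It stood at 5.72, 18.8 and 18.5 CPM in mock samples 1, 2 and 3 and at 4.77, 12.3 and 9.69 CPM in NRG1 samples. The NRG1 sample was the lower one in each culture, with log2 ratios of -0.24, -0.62 and -0.89, while the 2 low samples of culture 1 made the groups overlap. The log2 fold change of Cntf was -0.66 ± 0.19 (SE, edgeR adjusted p = 0.023), from 14.3 ± 7.45 to 8.93 ± 3.83 CPM (SD, n = 3). The call depended on the setting. Without culture 1 the log2 fold change of Cntf was -0.77, and the edgeR adjusted p of 0.0076 passed the threshold. That fit rests on cultures 2 and 3 alone, and its adjusted p is not comparable with that of all 3 cultures. The edgeR adjusted p of Lif, for example, was 7.4e-06 with all 3 cultures and 1.2e-13 in that fit, at log2 fold changes of 1.66 and 1.62. Without culture 3 the log2 fold change of Cntf was -0.46 with an adjusted p of 0.34 in edgeR. DESeq2 with the block gave -0.63 with an adjusted p of 0.097. Culture 1 had the lowest level of Cntf in both groups and also the lowest Schwann cell markers, and the part of the latter was not tested.

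The receptor of CNTF consists of Cntfr, which binds the ligand, and of Lifr and Il6st, which signal. All 3 were tested and none was called, while 2 (Cntfr and Il6st) had an unadjusted p under 0.05 in edgeR. Cntfr was at 2.79 ± 1.54 CPM in mock and 1.42 ± 1 CPM in NRG1 samples (SD, n = 3), lower in each culture, with a log2 fold change of -0.91 ± 0.34 (SE, edgeR adjusted p = 0.068). Lifr had a log2 fold change of -0.23 ± 0.24 (SE) and Il6st of 0.29 ± 0.13 (SE).

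**Figure D2:**
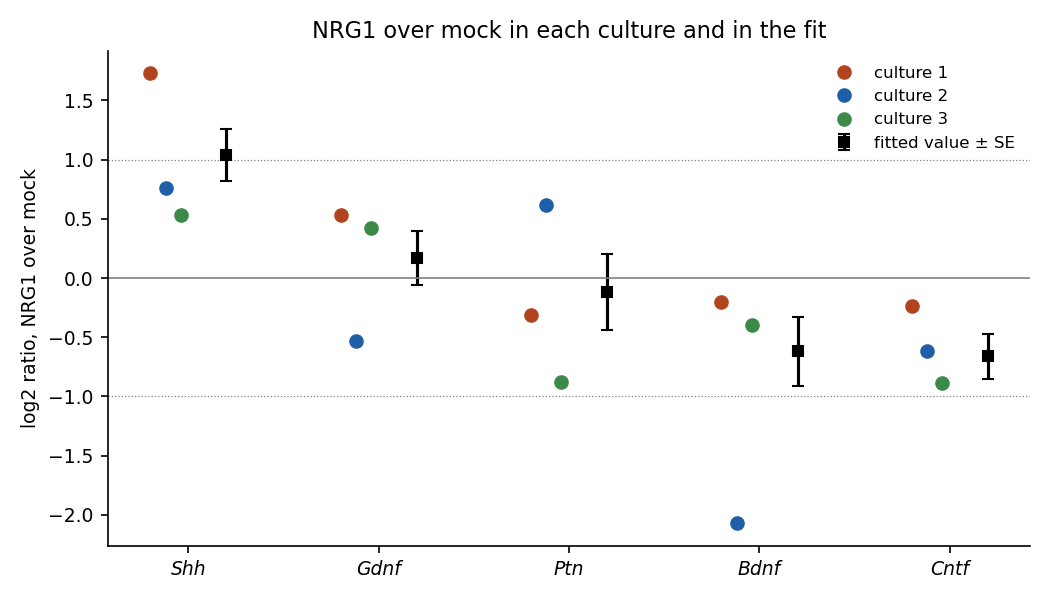
Log2 ratio of NRG1 over mock in cultures 1, 2 and 3 (coloured points) and the fitted log2 fold change with its standard error (black squares) for the 5 tested genes. Dotted lines mark a log2 fold change of 1 and -1. Shh lies above 0 and Cntf and Bdnf below 0 in the 3 cultures, whereas Gdnf and Ptn fall on both sides, and the lowest point, -2.07 for Bdnf, belongs to culture 2.

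Bdnf depended on the culture more than on NRG1. It was counted 230, 33 and 31 times in mock samples 1, 2 and 3 and 201, 9 and 28 times in NRG1 samples, or 29.9, 4.84 and 2.49 CPM against 25.9, 1.02 and 1.81 CPM. Culture 1 held 81% of all Bdnf counts. On the scale of mean log2 CPM, the highest and the lowest culture differed by 3.65, which is a 12.53-fold difference, and 98.6% of the tested genes had a smaller range. The levels of the fibroblast markers Dcn, Thy1 and Pdgfra were high in the same culture, and their part in the level of Bdnf was not tested.

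Within cultures, Bdnf was lower with NRG1, with log2 ratios of -0.20, -2.07 and -0.40. The log2 fold change was -0.62 ± 0.29 (SE, edgeR adjusted p = 0.13) and was not called. It was -1.18 without culture 1 (adjusted p = 0.02) and -0.26 without culture 2 (adjusted p = 0.4, edgeR), so the size of the difference rests largely on 33 against 9 counts in culture 2.

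The other neurotrophin, Ntf3, had 0 counts in all 6 libraries, which allows a level of up to 0.194 CPM in the largest library and 0.44 CPM in the smallest, with regard to counting error only. A count of 0 need not come from depth alone in these files, since Col1a2 had 2 counts in all beside Col1a1 at 13491 to 31035 CPM, and whether this applies to Ntf3 was not tested. Of 9 listed neurotrophin receptors and processing genes, 7 were tested, of which none rose and 1 fell. At an unadjusted p under 0.05 in edgeR, 1 was higher and 3 were lower. The gene that fell was Ntrk3, the receptor TrkC that prefers NT-3. It stood at 18.3, 34.4 and 34 CPM in mock samples 1, 2 and 3 and at 10.3, 7.46 and 14.7 CPM in NRG1 samples. The groups of Ntrk3 did not overlap, and its log2 fold change was -1.39 ± 0.21 (SE, edgeR adjusted p = 0.00043). Sorcs3 and Sorl1 of the same list were at 0 in all libraries. Ngfr, the shared receptor p75 and a marker of non-myelinating and repair Schwann cells, was at 2078 ± 936 CPM in mock and 2104 ± 763 CPM in NRG1 samples (SD, n = 3), with a log2 fold change of 0.08 ± 0.14 (SE). Ntrk2, the receptor of BDNF, had a log2 fold change of 0.09 ± 0.25 (SE), with log2 ratios of 0.92, -0.53 and -0.10 in cultures 1, 2 and 3.

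Gdnf, a survival factor for motor neurons, differed least between cultures among the 5 tested genes of the group. It stood at 6.76, 8.8 and 7.31 CPM in mock samples 1, 2 and 3 and at 9.8, 6.1 and 9.69 CPM in NRG1 samples. It was higher with NRG1 in cultures 1 and 3 and lower in culture 2, with log2 ratios of 0.53, 0.42 and -0.53. The log2 fold change was 0.17 ± 0.23 (SE, edgeR adjusted p = 0.63), and 0.01 without culture 1. The cultures differed by only 0.19 in mean log2 CPM, and 15.6% of the tested genes had a smaller range. A long non-coding RNA, LOC134485851, overlaps Gdnf in RefSeq. Artn, which encodes the GDNF family ligand artemin, was counted 2, 7 and 9 times in mock and 2, 13 and 22 times in NRG1 samples 1, 2 and 3. Its levels were 0.26, 1.03 and 0.723 CPM in mock and 0.258, 1.47 and 1.42 CPM in NRG1 samples, which is under the floor in both samples of culture 1. With 55 counts in all, Artn did not pass the filter on low counts. Fitted without that filter, it had a log2 fold change of 0.66 ± 0.57 (SE, edgeR adjusted p = 0.51).

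The receptors of these ligands behaved unequally. Of 6 listed GDNF family receptors 4 were tested, of which none rose and 1 fell (0 were higher and 2 lower at an unadjusted p under 0.05 in edgeR). Gfra3, the co-receptor that binds artemin, was at 3.25, 35.6 and 14.9 CPM in mock samples 1, 2 and 3 and at 1.42, 12.3 and 7.43 CPM in NRG1 samples. It was lower with NRG1 in each culture, although the groups overlapped, and its log2 fold change was -1.25 ± 0.20 (SE, edgeR adjusted p = 0.00056). Without culture 2 it was -1.01 and the adjusted p of 0.012 missed the threshold. The co-receptor of GDNF, Gfra1, was at 990 ± 411 CPM in mock and 932 ± 291 CPM in NRG1 samples (SD, n = 3), with a log2 fold change of -0.03 ± 0.14 (SE), and Gfra2 had -0.33 ± 0.12 (SE, edgeR adjusted p = 0.067). Ret, the signalling receptor shared by these ligands, had at most 3 counts in a library. The difference between the changes of Gfra3 and Gfra1 was not itself tested.

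Ptn and Mdk encode heparin-binding growth factors that promote neurite growth. Ptn was at 1.17, 7.62 and 4.66 CPM in mock samples 1, 2 and 3 and at 0.903, 12 and 2.39 CPM in NRG1 samples. It was higher with NRG1 in culture 2 and lower in cultures 1 and 3, and the log2 fold change was -0.12 ± 0.32 (SE, edgeR adjusted p = 0.82), and -0.08 without culture 1. The cultures differed by 2.95 in mean log2 CPM, a larger range than in 97.5% of the tested genes, and culture 1 was the lowest. Mdk had 23 counts in all, with at most 0.723 CPM in any sample, and did not pass the filter. Without the filter its log2 fold change was -0.38 ± 0.88 (SE, edgeR adjusted p = 0.83). Chrm4 overlaps Mdk in RefSeq.

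Of the 12 listed receptors of midkine and pleiotrophin 11 were in the files and 9 were tested, of which 2 rose and none fell. At an unadjusted p under 0.05 in edgeR, 3 were higher and 1, Sdc2, was lower. Sdc1, a cell-surface heparan sulfate proteoglycan, was at 112, 44.3 and 70.9 CPM in mock samples 1, 2 and 3 and at 170, 240 and 250 CPM in NRG1 samples, without overlap of the groups. Its log2 fold change was 1.62 ± 0.24 (SE, edgeR adjusted p = 0.00031), with log2 ratios of 0.61 in culture 1 and 2.41 and 1.84 in cultures 2 and 3. DESeq2 with the block gave 1.64 and narrowly missed the adjusted p of 0.01. Ncl encodes nucleolin, which is mainly a nucleolar protein, and it was at 233 ± 46.6 CPM in mock and 455 ± 27.2 CPM in NRG1 samples (SD, n = 3). It rose by a log2 fold change of 0.99 ± 0.13 (SE, edgeR adjusted p = 0.00018). Ptprz1 and Alk, better known as signalling receptors of these factors, were not called, with log2 fold changes of -0.13 ± 0.13 (SE) and 0.39 ± 0.14 (SE).

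Olig1 had 4 counts in mock sample 1, 3 counts in NRG1 sample 1 and none in cultures 2 and 3. Its level was therefore at or near the floor in culture 1 and under it elsewhere, and it did not pass the filter. Fitted without the filter, Olig1 had a log2 fold change of -0.34 ± 1.56 (SE, edgeR adjusted p = 0.92), an error that leaves its direction unknown. Of 8 listed genes with the Olig family and transcription factors of the differentiated and repair states, 6 were tested, of which none rose and 1 fell. At an unadjusted p under 0.05 in edgeR, 1 was higher and 2 were lower. The gene that fell was Egr2, which drives the myelin programme, with 18.5 ± 6.61 CPM in mock and 5.74 ± 1.89 CPM in NRG1 samples (SD, n = 3). Its log2 fold change was -1.71 ± 0.21 (SE, edgeR adjusted p = 8.5e-05). Jun, which encodes c-Jun, was at 359 ± 107 CPM in mock and 325 ± 105 CPM in NRG1 samples (SD, n = 3), with a log2 fold change of -0.15 ± 0.12 (SE).

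Among 15 other trophic ligands, 9 were tested, of which 2 rose and none fell (5 were higher and 0 lower at an unadjusted p under 0.05 in edgeR). Lif, a cytokine of the gp130 family that shares receptors with CNTF, had the largest change of these. It stood at 12.1, 24.8 and 20.6 CPM in mock samples 1, 2 and 3 and at 41.5, 62.3 and 75.1 CPM in NRG1 samples, so that the groups did not overlap. Its log2 fold change was 1.66 ± 0.15 (SE, edgeR adjusted p = 7.4e-06), with similar log2 ratios of 1.77, 1.30 and 1.88. Fgf1, a growth factor without a classical signal peptide, rose between 2.65 ± 2.1 CPM in mock and 5.85 ± 3.95 CPM in NRG1 samples (SD, n = 3), by a log2 fold change of 1.17 ± 0.27 (SE, edgeR adjusted p = 0.0074). Fgf1 had 2 counts in mock sample 1, which is under the floor, and 10 in NRG1 sample 1. It was not called without culture 2 (1.17, adjusted p = 0.029) or culture 3 (1.37, adjusted p = 0.047), nor by DESeq2 with the block (1.26, adjusted p = 0.033).

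Hgf, which is known from mesenchymal cells, had 77 and 37 counts in the mock and NRG1 samples of culture 1 and none in the other 4 libraries.

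**Figure D3:**
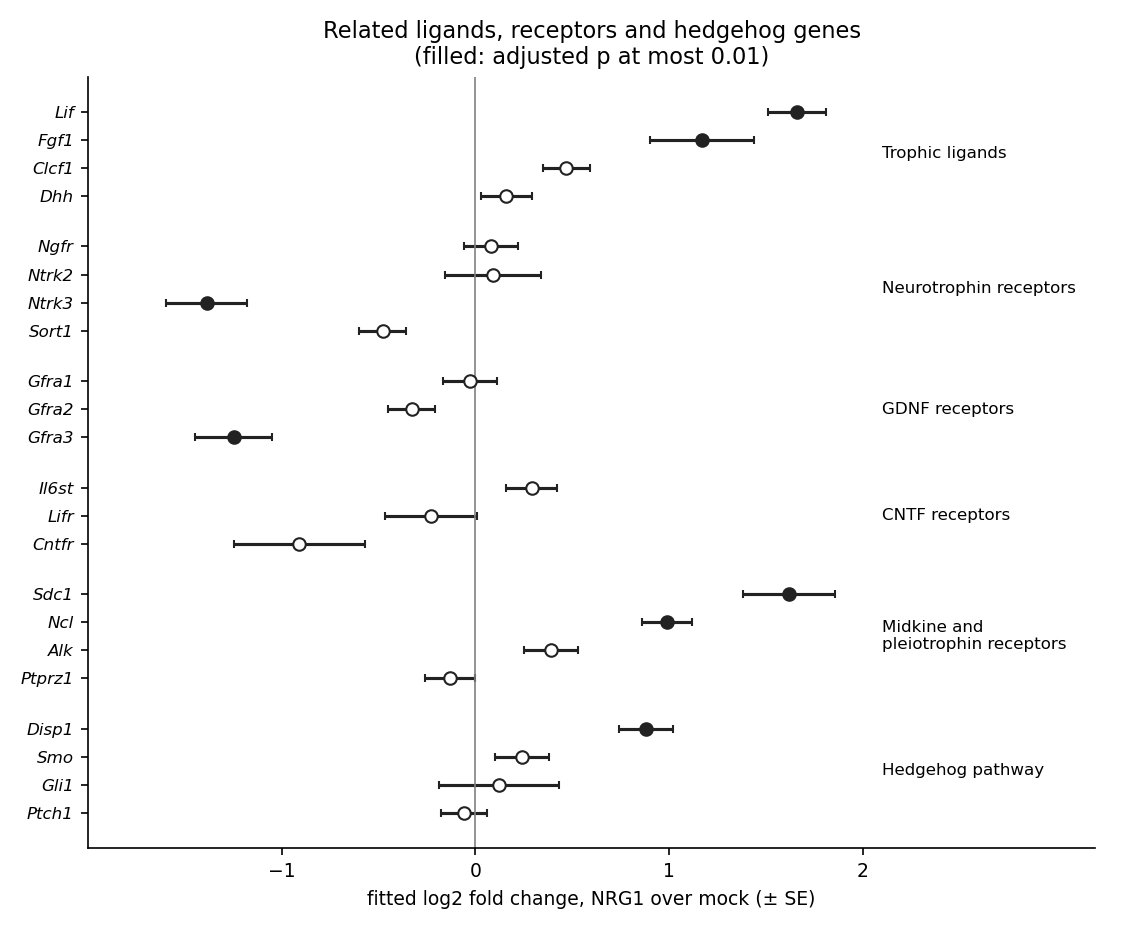
Fitted log2 fold change, NRG1 over mock, with its standard error for selected tested genes of the ligand, receptor and hedgehog lists. Filled points had an adjusted p of at most 0.01. Lif, Fgf1, Sdc1, Ncl and Disp1 lie to the right of 0 and Ntrk3 and Gfra3 to the left, while Ptch1, Gfra1 and Ngfr lie close to 0.

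Together, 47 of the 62 ligand, receptor and pathway genes in the files were tested, of which 5 rose and 3 fell, and 5 rose and 4 fell without culture 1. In that fit the log2 fold change was 1.62 for Lif, 1.08 for Fgf1, 2.12 for Sdc1, 1.13 for Ncl and 0.78 for Disp1, and it was -1.63 for Ntrk3, -1.26 for Gfra3 and -1.90 for Egr2. The shares of all tested genes that rose and fell were 6.31% and 5.51%. The median log2 fold change was 0.06 over these 47 genes and -0.03 over all tested genes.

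**Figure D4:**
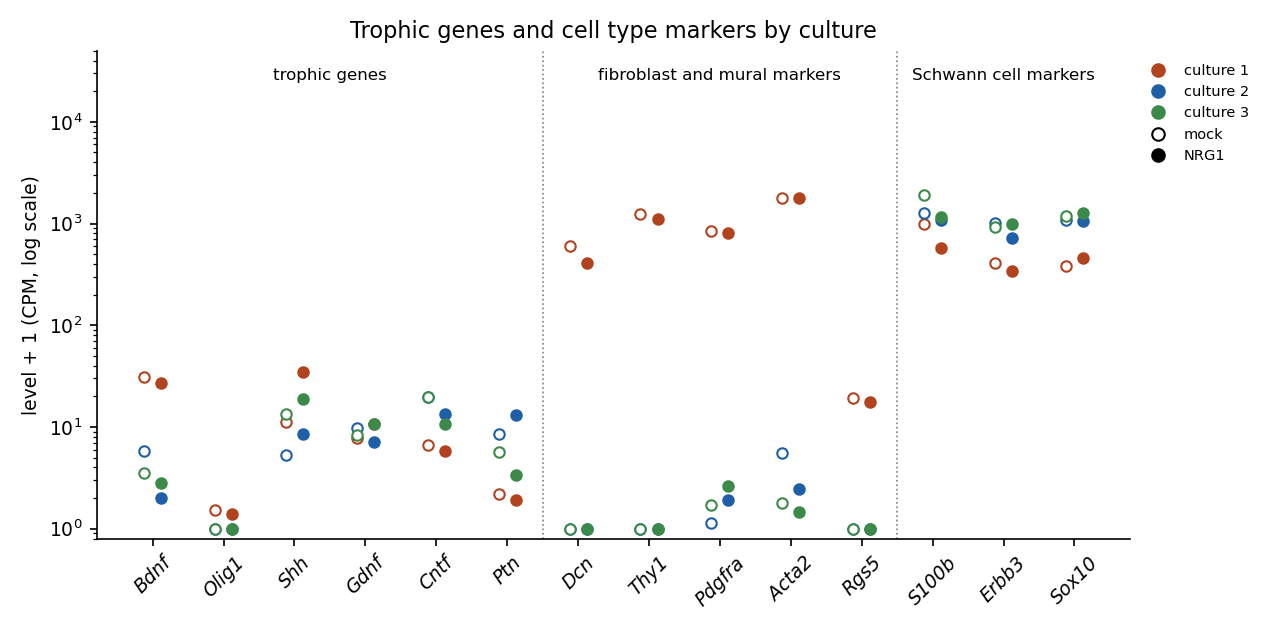
Level plus 1 in CPM, on a log scale, of 6 trophic genes, 5 fibroblast or mural markers and 3 Schwann cell markers in each library, coloured by culture, with open points for mock and filled points for NRG1. Both samples of culture 1 were high in the fibroblast and mural markers shown and in Bdnf. They were low in Cntf, Ptn and the Schwann cell markers shown, while Gdnf lay between 6.1 and 9.8 CPM in all libraries. The fibroblast marker Fbln1 and the perineurial and mural markers Des and Cldn1, not shown, did not set culture 1 apart.

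The markers of other cells were compared in the same samples. Of the 6 Schwann cell markers 3 fell with NRG1, namely S100b, Pmp22 and Mbp, while Sox10, Erbb3 and Ngfr were not called. None of the 4 tested fibroblast markers was called by edgeR, and 1 (Col3a1) had an unadjusted p under 0.05. Col3a1, a fibrillar collagen, had a log2 fold change of -0.98 ± 0.25 (SE, edgeR adjusted p = 0.012), with log2 ratios of 0.05, -1.59 and -1.38 in cultures 1, 2 and 3. Without culture 1 it fell, by a log2 fold change of -1.48 (edgeR adjusted p = 3.2e-13), from 830 and 451 CPM in mock to 280 and 170 CPM in NRG1 samples. That adjusted p rests on cultures 2 and 3 alone and is not comparable with the 0.012 of all 3 cultures. Dcn, Lum and Thy1, present in culture 1 alone, were lower in its NRG1 sample, at 413 against 594, 14.3 against 22.6 and 1106 against 1233 CPM, with no replicate. The part of these markers in the differences of the trophic genes was not tested. The 6 perineurial and mural markers summed to 1872 and 1924 CPM in culture 1 and to 50.6 to 73.9 CPM elsewhere. Acta2 made up most of the sum in culture 1, while Des and Cldn1 did not set culture 1 apart. Of the 3 tested markers of this list Slc2a1, a glucose transporter of many cells, rose. Macrophage markers summed to 2.47 to 4.59 CPM, with Ptprc, Cd163, Adgre1 and Tyrobp at 0, and endothelial markers to 5.8 to 15 CPM, with Pecam1, Cdh5 and Emcn at 0. The neuronal list summed to 2281 to 8127 CPM through Nefl and Nefm, of which neither was called, while Rbfox3 was at 0 and Snap25 had at most 8 counts. The oligodendrocyte list summed to 118 to 213 CPM, with Opalin at 0, and Sox8 fell in it.

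**Figure D5:**
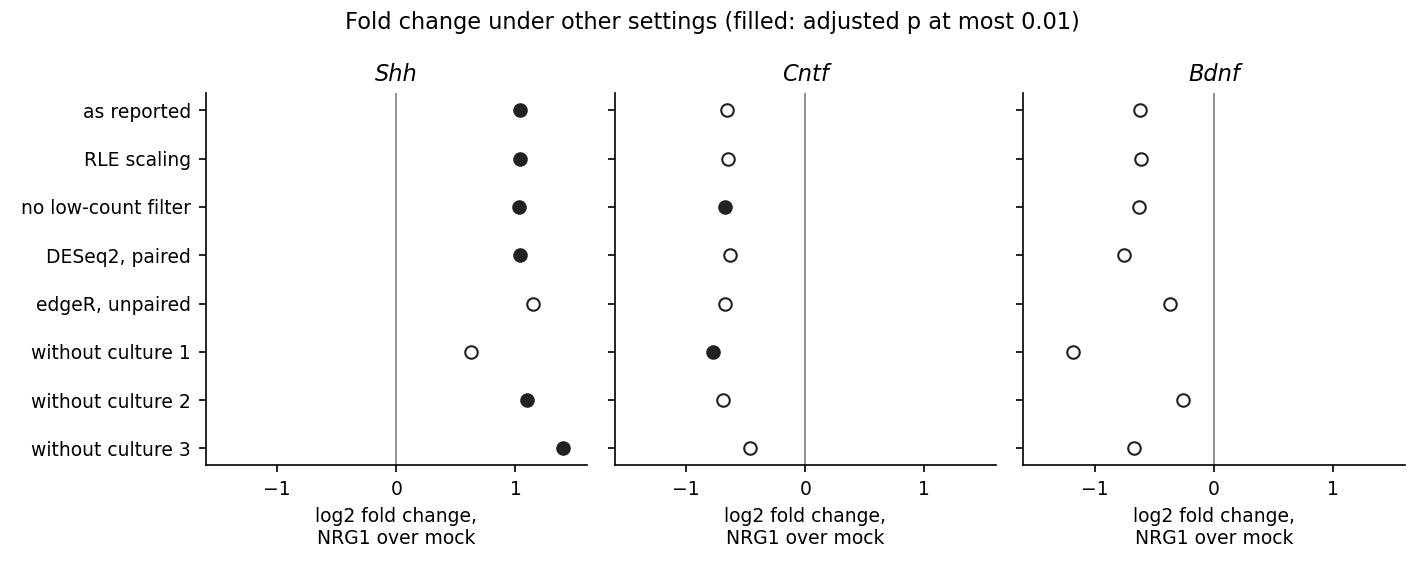
Log2 fold change, NRG1 over mock, of Shh, Cntf and Bdnf as reported and under 7 other settings. Filled points had an adjusted p of at most 0.01. Shh stays to the right of 0 and Cntf and Bdnf to the left in all 8 rows, but Shh lost its call without culture 1 (0.63) and in the unpaired edgeR fit (1.15), and Cntf gained one without culture 1 (-0.77) and without the filter on low counts (-0.67). The unpaired edgeR fit called no gene at all. Adjusted p of the fits without culture 1 and without the filter are not comparable with those as reported. The calls Cntf gained there are therefore not read as stronger evidence.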

How the data were processed

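RNA of 3 mock and 3 NRG1 samples was selected for poly(A) and sequenced on an Illumina NextSeq. The authors aligned reads to rn5 (TopHat 2.0.10), used htseq with the RefSeq transcriptome and deposited raw counts. Use of strand is not given in the sources used here. Summary lines of htseq, 50.1% to 53% of the alignments, were left out.

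Counts were tested with edgeR 4.0.16 in R 4.3.3: filterByExpr with a minimum count of 10 (9740 genes kept), TMM, a quasi-likelihood fit with the culture number as a block as in the study's methods, and Benjamini-Hochberg adjustment over all tested genes. Standard errors (SE) were obtained by dividing a log2 fold change by the root of its F. CPM uses total gene counts, and log2 ratios use TMM-scaled log2 CPM with a prior count of 2. Numbers in the labels pair the samples: across genes, deviations from group means correlated with r of 0.91, 0.67 and 0.81 within cultures 1, 2 and 3 and between -0.80 and 0.51 across them.

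No pair of libraries had counts within sampling noise (chi-square per degree of freedom at least 22.4). Genes named are the 9, the direct receptors reported here, every listed gene with an adjusted p of at most 0.01 and the 3 genes most like each called one; Gli1, Hhip, Dhh, Hgf, Jun, Sorcs3, Sorl1 and the markers named were chosen after their values were seen. Members, lists and motifs were chosen with earlier results of these data known. Of the listed genes, 5 (Ptprb, Gas1, Boc, Hhat and Scube2) did not match a symbol and were not analysed here. A few further listed genes are not reported here, and the list counts leave them out. The fit was tested on simulated counts. Alternatives were no block, DESeq2 1.42.0 with and without the block (the latter added after seeing the data), RLE, other filters, an adjusted p of 0.05 and leaving out each culture.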

Additional observations from a re-analysis of the deposited data

How the results depend on the processing

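Precision was limited by 3 cultures and by depth: Ntf3 had no count, Artn, Mdk and Olig1 had at most 22 in a library, and Bdnf had under 40 counts in each library of cultures 2 and 3. Without the replicate block, edgeR called no gene (713 were higher and 621 lower at an unadjusted p under 0.05, with 0 trophic and 7 pathway genes among them), so that every count of changed or regulated genes was 0. Unpaired DESeq2 (no replicate block), chosen after seeing the data, gave 59 genes regulated up and 42 down and 114 changed up and 70 down, and called 0 trophic genes and 3 pathway genes up and 1 down. Leaving out each culture in turn gave 133 to 202 genes regulated up, 122 to 299 down, 408 to 590 changed up and 253 to 601 changed down. The trophic genes called changed or regulated upwards ranged from 0 to 1 in these fits (0 without culture 1), and those changed downwards from 0 to 1 (Cntf without culture 1). Cntf also made 1 gene changed downwards without the filter on low counts and at an adjusted p of 0.05. The fits without culture 1 and without that filter gave far lower adjusted p for strongly changed genes. Lif, for example, had an edgeR adjusted p of 1.2e-13 and 2.8e-17 in them, against 7.4e-06 as reported. Adjusted p and calls of these fits are therefore not comparable with those reported. Without that filter 857 genes fell, and at an adjusted p of 0.05 1124 rose and 1136 fell, with 5 pathway genes lower under each of these settings.

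Signs turned only for genes that were not called. Ptn had a log2 fold change of 0.18 without the block in edgeR and in DESeq2 and ranged from -0.80 to 0.42 when each culture was left out. The same ranges were -0.05 to 0.18 for Ngfr, -0.31 to 0.38 for Ntrk2, -0.16 to 0.10 for Gfra1, -0.38 to 0.06 for Lifr, -0.11 to 0.37 for Gli1 and -0.12 to 0.02 for Ptch1. Fgf1 was not called by DESeq2 with the block or without culture 2 or 3, with log2 fold changes of 1.26, 1.17 and 1.37, nor was Gfra3 without culture 2 (-1.01) or Sdc1 by DESeq2 with the block (1.64), while Alk was called without culture 2 (0.54). The others of the 30 genes recomputed, Shh among them, kept their direction in every alternative in which they could be fitted. The causes were not tested.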
